A study of Zea mays with 24 samples.

Results

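The calcium sensor and CIPK kinase genes of maize were read as a set in leaf RNA. The set holds every gene model whose deposited name or description contains "calmodulin", "calcineurin B-like", "CBL-interacting" or "calcium-dependent protein kinase". The words matched 213 gene models, and 150 of them reached an FPKM (fragments per kilobase of transcript scaled to the mapped fragments of the library, a level corrected for gene length and depth) of at least 0.5 in at least 3 libraries. These 150 are the members described here, out of 46430 genes in the table and 23978 genes that passed the same filter. The rule used no measured difference between groups, although it was set with earlier results of these data known. The other 63 matches stayed below the filter, and 17 of these were listed at 0 in every library. Of the members, 101 reached 0.5 FPKM in all 24 libraries, and 4 reached it in libraries of 1 line only, so for those 4 the filter itself depended on the line. At the edge, the 5 members with exactly 3 libraries at the filter had a third-highest FPKM of 0.543 to 1.55, and the 6 matches with 1 or 2 such libraries had 0.18 to 0.49.

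The study compared Y7-1, a T4-generation transgenic line that overexpresses the membrane protein gene ZmPMP3g, with the inbred line it was made from, Y478 (labelled Ye478, wild type). Y7-1 is 1 line with 1 inserted construct under a constitutive cauliflower mosaic virus promoter, so a difference between the lines describes that line. Potted plants of both lines were kept at a pot mix moisture of 70% (control) or were dried to 50% to 40% (moderate drought), each with or without a foliar spray of 15 mg/L abscisic acid (ABA, the plant drought hormone). The 8 groups were therefore Y7-1 and Y478 under moderate drought-exogenous ABA, moderate drought, control-exogenous ABA and control. According to the study's methods, seedlings in the control treatment received a tap water spray of the same volume. Below, sprayed means sprayed with ABA, and unsprayed or without spray means without ABA. Each group had 3 libraries, each from the second fully expanded leaf of 1 plant at the V5 stage, taken on day 9 of the moisture treatment.

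Calcium ions enter the cytosol when a plant cell senses drought, touch, salt or ABA, and the sensor proteins bind them through EF-hand motifs. Calmodulins and calmodulin-like proteins have no enzyme activity and act by binding other proteins. Calcineurin B-like (CBL) proteins bind and recruit the CBL-interacting protein kinases (CIPKs), which phosphorylate ion channels and transporters, while calcium-dependent protein kinases (CDPKs) carry sensor and kinase in the same protein. In guard cells and roots of Arabidopsis these modules are known for opening and closing anion and potassium channels and for regulating the NADPH oxidases.

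Recovered reads were even among the libraries. The reads recovered from FPKM and gene length numbered 15762667 to 18428177 per library, of which 54231 to 130411 fell in members. The library size implied by the FPKM values varied more, from 13616081 to 19901729. In Y478 control-exogenous ABA replicate 3 it was 13660486 against 18090228 recovered reads, so FPKM was not scaled to the fragment total alone. As a result, 1 read on a gene of 1 kb was worth 0.0502 to 0.0734 FPKM. The gene model that the study calls a homolog of the transgene, Zm00001d024778, had 80.1 to 1634 FPKM (median 381) in 11 Y7-1 libraries. It had 195 to 3233 FPKM (median 863) in 12 Y478 libraries and 3435 FPKM in replicate 3 of Y7-1 moderate drought. The line difference averaged over treatments was -0.68 on the log2 scale (limma adjusted p = 0.0617). This gene model was thus not higher in Y7-1, and it did not separate the lines by label. A set of line-specific genes did. Replicate 3 of the group labelled Y7-1 moderate drought had at least 1 FPKM for 0 of 125 genes that were read at 1 FPKM or more in the Y7-1 libraries of the other treatments and below 0.1 FPKM in Y478, 1 exception a line allowed, against 107 and 109 genes in replicates 1 and 2 of its group. Of 74 genes with the opposite pattern it read 68, where replicates 1 and 2 read 0 and 4 of them and Y478 plants under the same drought read 68 to 70. This library went against its label, and is called the doubted library. Without it, 81 of the 82 members called in the line average and 32 of the 37 called in the drought average were called in the same direction, with sizes that moved by at most 0.27 on the log2 scale.

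The set was dominated by a few genes. Zm00001d040567, annotated as CIPK 1, had the highest mean of all members at 477 FPKM over 24 libraries. It was followed by the calmodulin3 gene Zm00001d028948 (426 FPKM), a calmodulin gene Zm00001d010650 (391 FPKM) and the CIPK3 gene Zm00001d028949 (182 FPKM). Per library, the 35 CIPK members made up a median of 46.0% of the summed FPKM of the set and the 19 calmodulins and other matches made up 37.0%. The 49 calmodulin-binding proteins made up 9.22%, the 29 CDPKs 4.83%, the 13 CBLs 2.73% and the 5 calmodulin-like proteins 1.61%. The 19 included 3 models annotated only by similarity to the Arabidopsis kinases CPK5 and CPK21 and 1 kinase phosphatase. A protein kinase domain was listed for 33 of 35 CIPKs and 26 of 29 CDPKs. Reads may have been divided among calmodulin genes of similar sequence, which was not tested. Zm00001d038545 (calmodulin1) lies inside Zm00001d038543 on the same strand.

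Drought and control were compared to find which sensors and kinases moved with soil water, averaging over both lines and both sprays. With limma on log2(FPKM + 0.5), a scale that understates changes of low genes, 21 members were higher and 16 were lower under drought at an adjusted p under 0.05. That is 37 of 150 members, against 27.9% of all genes tested (14.5% higher and 13.4% lower), so members passed about as often as other genes. With a change of at least 1 on the log2 scale as well, 7 were higher and 2 lower, against 5.46% of genes tested. Of the 19 calmodulins and other matches, 6 were higher and 0 lower, with a median of 0.25. Of the 49 calmodulin-binding proteins, 1 was higher and 9 lower, with a median of -0.05. Of the kinases, 8 of 35 CIPKs were higher and 2 lower, and 3 of 29 CDPKs were higher and 4 lower. CBLs had 2 of 13 higher and 1 lower, and calmodulin-like proteins 1 of 5 higher. The median over all genes tested was -0.00. In bulk leaf RNA, fewer cells of a type and less RNA per cell cannot be told apart. With that doubted library left out, 16 members were higher and 21 lower, against 26.9% of genes tested. The calmodulins and other matches then had 5 higher and 1 lower, calmodulin-binding proteins 1 and 10, CIPKs 7 and 4, CDPKs 2 and 5, CBLs 1 and 1 and calmodulin-like proteins 0 and 0.

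**Figure D1:**
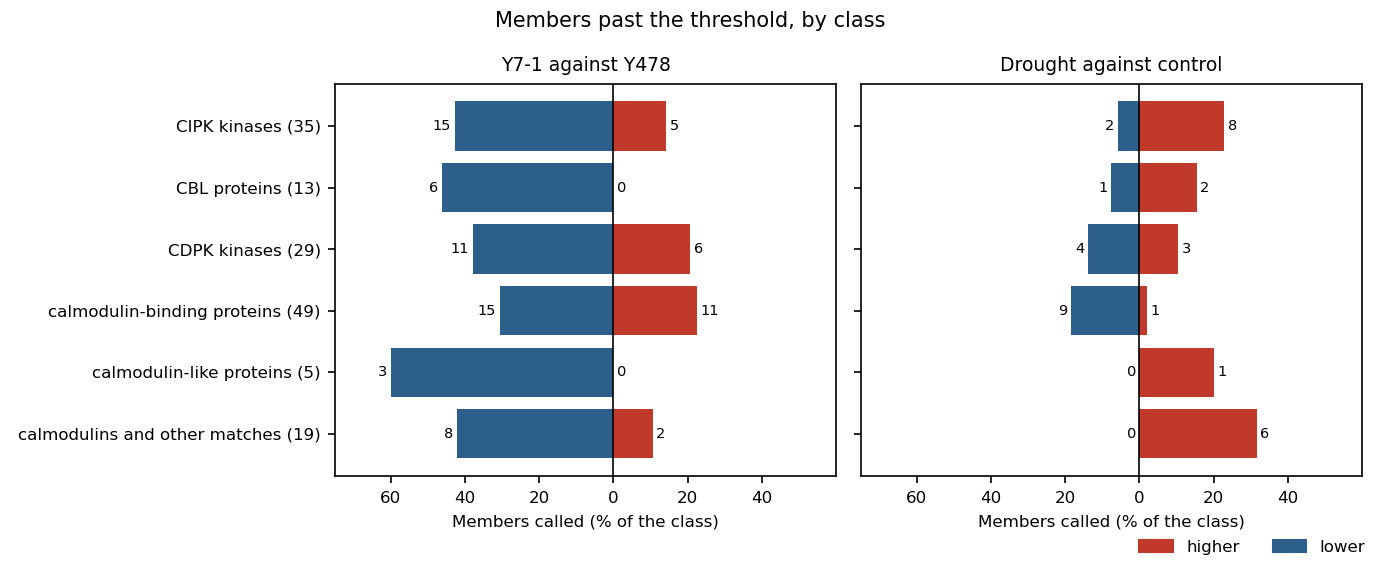
Share of each class called higher (right, red) or lower (left, blue) at a limma adjusted p under 0.05, for Y7-1 against Y478 over 4 treatments (left panel) and drought against control over lines and sprays (right panel). Numbers beside bars are members called, numbers in parentheses are class sizes. The 6 calmodulins and other matches called with drought were higher (5 higher and 1 lower without the doubted library), while 9 of the 10 calmodulin-binding proteins called were lower (10 of 11 without it).

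The largest drought difference of any member was in Zm00001d008573, annotated as a touch-induced calmodulin (chr8:13343616-13344233, minus strand). In Y478 it had 142, 57.3 and 56.2 FPKM under moderate drought against 15.8, 7.60 and 11.4 FPKM under control. With ABA spray, Y478 had 105, 53.6 and 130 FPKM under drought against 10.4, 15.9 and 12.9 FPKM under control. In Y7-1 with ABA it had 19.8, 25.7 and 34.0 FPKM under drought against 2.05, 3.57 and 1.78 FPKM under control. No drought library overlapped its control group in these 3 comparisons. In Y7-1 without spray it had 8.13, 13.6 and, in the doubted replicate 3, 63.9 FPKM under drought, against 3.06, 3.22 and 2.94 FPKM under control. The average drought difference was 2.79 ± 0.27 (log2, SE; limma adjusted p = 1.35e-06), and 2.58 without the doubted library (limma adjusted p = 4.02e-07). Within Y7-1 without spray the difference was 2.48 (limma adjusted p = 0.040), and 1.63 without that library (limma adjusted p = 0.137). That call was also lost without any 1 of the 3 Y7-1 control replicates (limma adjusted p = 0.066 to 0.105).

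The 2 most abundant calmodulin genes were also higher. Zm00001d028948, calmodulin3, had 343 to 962 FPKM (median 545) in the 12 drought libraries and 108 to 430 FPKM (median 269) in the 12 control libraries. Zm00001d010650 had 386 to 758 FPKM (median 496) under drought and 190 to 387 FPKM (median 267) under control. For Zm00001d028948 the 2 groups overlapped between 343 and 430 FPKM, and for Zm00001d010650 only between 386 and 387 FPKM. The average differences were 1.13 ± 0.18 for Zm00001d028948 (limma adjusted p = 0.000148) and 0.94 ± 0.11 for Zm00001d010650 (limma adjusted p = 5.76e-06). Summed over the 19 models of the class, drought libraries had 1132 to 2117 FPKM and control libraries 625 to 1003 FPKM, with no overlap.

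A further calmodulin, Zm00001d008278 (annotated as Calmodulin-7), was the only member whose 12 drought libraries lay entirely above its 12 control libraries. It had 22.6 to 45.4 FPKM (median 28.0) under drought and 7.05 to 22.1 FPKM (median 16.2) under control. The average difference was 0.92 ± 0.14 (limma adjusted p = 0.000120). Of all genes tested, 0.359% separated in this direction, and 0 members separated downward, where 0.192% of genes did.

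**Figure D2:**
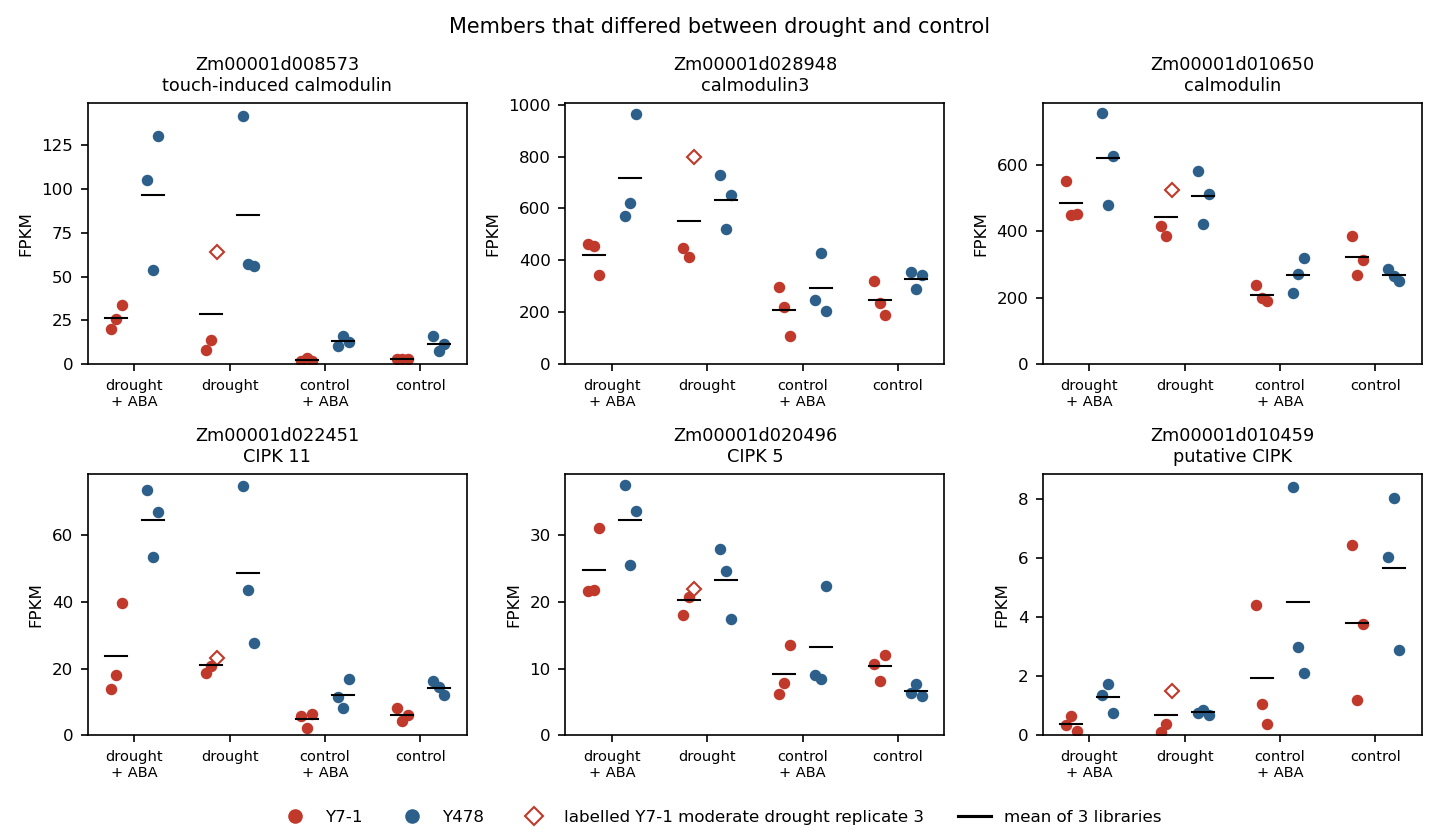
FPKM of 6 members in each of the 24 libraries, by treatment and line. Red points are Y7-1, blue points are Y478, bars are means of 3 libraries and the open diamond is the doubted replicate 3 of Y7-1 under moderate drought. The touch-induced calmodulin reached 142 FPKM in Y478 under drought and at most 15.9 FPKM in Y478 under control; the putative CIPK ran the other way.

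Among the kinases, the CIPK 11 gene Zm00001d022451 (chr7:177999485-178000798, minus strand) differed most. In Arabidopsis CIPK11 phosphorylates the plasma membrane proton pump. In Y478 it had 74.7, 43.6 and 27.6 FPKM under drought against 16.2, 14.4 and 12 FPKM under control. In Y478 with ABA it had 73.5, 53.3 and 66.9 FPKM under drought against 11.4, 8.08 and 16.8 FPKM under control. In Y7-1 with ABA it had 13.9, 18.0 and 39.7 FPKM under drought against 5.75, 2.04 and 6.48 FPKM under control. Drought libraries lay above their controls in these 3 comparisons. In Y7-1 without spray it had 18.7, 20.8 and, in the doubted library, 23.3 FPKM under drought against 8.21, 4.23 and 6.18 FPKM under control, also without overlap. The average difference was 1.99 ± 0.21 (limma adjusted p = 2.70e-06). The unsprayed Y478 difference of 1.64 (limma adjusted p = 0.0268) was lost without Y478 moderate drought replicate 1 or 2 or without any Y478 control replicate, with a limma adjusted p of 0.0664 to 0.166.

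The CIPK 5 gene Zm00001d020496 had 17.4 to 37.6 FPKM (median 23.3) in the drought libraries and 5.93 to 22.5 FPKM (median 8.32) in the control libraries. Only Y478 control-exogenous ABA replicate 3, at 22.5 FPKM, reached into the drought range. The average difference was 1.37 ± 0.16 (limma adjusted p = 6.44e-06). CIPK 5 and CIPK 11 each lie beside a further CIPK gene on chromosome 7 with no protein-coding model between them. The neighbours were Zm00001d020497 (CIPK 6) at a gap of 27399 bases and Zm00001d022450 (CIPK 10) at 42303 bases. Over 24 libraries, Zm00001d020497 had a Pearson correlation of 0.081 with CIPK 5, and Zm00001d022450 of 0.499 with CIPK 11. In Y7-1 without spray Zm00001d020497 had a drought difference of -1.07 (limma adjusted p = 0.244). Without the doubted library that difference was -1.41 (limma adjusted p = 0.276). Zm00001d022450 had an average drought difference of 0.37 (limma adjusted p = 0.0417), and 0.28 without the doubted library, where it had 307 FPKM (limma adjusted p = 0.0640). These neighbours were looked at after their values were seen.

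A low CIPK gene, Zm00001d010743, was higher in the sprayed Y478 plants, with 6.51, 2.81 and 3.63 FPKM under drought against 0.449, 0.596 and 0.239 FPKM under control. The groups did not overlap, and the difference was 2.32 ± 0.38 (limma adjusted p = 0.00171, and 0.0509 with only the 2 groups in the fit). The CIPK3 gene Zm00001d028949 had 91.8 to 380 FPKM (median 251) under drought and 47.7 to 242 FPKM (median 94.5) under control over both lines. Its average difference was 0.82 ± 0.20 (limma adjusted p = 0.00459), and 0.66 without the doubted library (limma adjusted p = 0.00190).

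Of the kinases lower under drought, the putative CIPK gene Zm00001d010459 had 0.116 to 1.72 FPKM (median 0.720) in drought libraries and 0.380 to 8.40 FPKM (median 3.36) in control libraries, with overlapping ranges. The average difference was -1.62 ± 0.31 (limma adjusted p = 0.000694). The CDPK 30 gene Zm00001d013527 had 2.36, 2.14 and 2.05 FPKM in Y478 under drought against 8.89, 8.38 and 4.84 FPKM under control, without overlap, and the average difference over both lines and sprays was -0.81 ± 0.14 (limma adjusted p = 0.000279). Another CDPK gene, Zm00001d052713, was close to the limit of reading, with 0 to 0.584 FPKM (median 0.060) under drought and 0 to 2.19 FPKM (median 0.896) under control. Its average difference was -1.07 ± 0.20 (limma adjusted p = 0.000676).

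Of the calmodulin-binding proteins lower under drought, Zm00001d045756, a calmodulin-regulated receptor-like kinase chosen here after its values were seen, had 10.2 to 16.6 FPKM (median 13.7) under drought and 13.8 to 24.2 FPKM (median 19.3) under control. The average difference was -0.41 ± 0.09 (limma adjusted p = 0.00233). Zm00001d016856, calmodulin binding protein1, had 15.6 to 29.5 FPKM (median 21.2) under drought and 14.6 to 43.8 FPKM (median 30.0) under control, with a difference of -0.39 ± 0.12 (limma adjusted p = 0.0214). The ranges of both genes overlapped. Zm00001d021460, annotated by similarity to Arabidopsis CBP60g, an immunity regulator, had a difference of -0.94 ± 0.23 (limma adjusted p = 0.00459).

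Of the 37 calls, 29 were kept at an adjusted p under 0.05 whichever library was left out, 15 higher and 14 lower. Between single groups the counts were smaller: 7 higher and 5 lower in Y478 without spray (5.98% of genes tested) and 11 higher and 8 lower in Y478 with spray (9.66%). In Y7-1 there were 9 higher and 8 lower with spray (11.8%) and 1 higher without spray (0.713%), which became 0 without the doubted library (0.0834%). The unsprayed Y478 count of 12 dropped to 2 without Y478 moderate drought replicate 1, to 5 without replicate 2, and to 4, 3 and 7 without Y478 control replicates 1, 2 and 3. The sprayed Y478 count of 19 dropped to 5 when replicate 3 of Y478 moderate drought-exogenous ABA was left out, and to 7 and 12 without Y478 control-exogenous ABA replicates 1 and 2. The sprayed Y7-1 count of 17 became 10, 7 and 11 without Y7-1 moderate drought-exogenous ABA replicates 1, 2 and 3, 11 without Y7-1 control-exogenous ABA replicate 2, and 27 without the doubted library (13.8% of genes tested). The unsprayed Y7-1 count of 1 became 9 without Y7-1 moderate drought replicate 1 and 0 without any 1 Y7-1 control replicate.

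The lines were compared to find which members differed between Y7-1 and Y478, averaging over the 4 treatments. Here 24 members were higher and 58 lower in Y7-1, against 48.9% of genes tested called in either direction, 24.6% higher and 24.3% lower. The median difference over members was -0.17, where that over all genes tested was 0.00. Lower members outnumbered higher ones among CIPKs (5 higher and 15 lower of 35), CDPKs (6 and 11 of 29), CBLs (0 and 6 of 13), calmodulin-like proteins (0 and 3 of 5) and calmodulins and other matches (2 and 8 of 19). Calmodulin-binding proteins were nearly balanced, at 11 higher and 15 lower of 49. With a change of at least 1 as well, 5 were higher and 21 lower, against 14.7% of genes tested. Without the doubted library 23 members were higher and 62 lower, against 51.8% of genes tested. CIPKs then had 5 higher and 17 lower, CDPKs 6 and 11, CBLs 0 and 6, calmodulin-like proteins 0 and 4, calmodulins and other matches 2 and 9 and calmodulin-binding proteins 10 and 15. The 82 calls include 2 of the 4 members that reached the filter in 1 line only, and 23 of the others were higher and 57 lower. Of the 82 calls, 66 were kept whichever library was left out, 15 higher and 51 lower.

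Annotation word lists for leaf cell types were read beside these counts, against the same 24.6% of genes tested higher and 24.3% lower in Y7-1. Mesophyll words were phosphoenolpyruvate carboxylase1, pyruvate orthophosphate dikinase and carbonic anhydrase, and bundle sheath words NADP malic enzyme and small Rubisco subunit. Guard cell words were SLAC1, S-type anion channel, FAMA and epidermal patterning factor. Phloem words were sucrose transporter, SWEET and sucrose synthase. Epidermis and wax words were glossy, eceriferum and 3-ketoacyl-CoA synthase. Senescence, not a cell type, was matched by that word. Of 6 bundle sheath markers tested 0 were higher and 3 lower in Y7-1, and their mean log2 level was 6.10 to 7.13 in 11 Y7-1 libraries, 7.20 in the doubted library and 7.23 to 7.96 in 12 Y478 libraries. Their summed level was 3335 to 16793 FPKM in those Y7-1 libraries, 4975 FPKM in the doubted library and 5102 to 14170 FPKM in Y478 libraries, and 2 of 9 matched bundle sheath genes were listed at 0 in every library. Of 18 mesophyll markers tested 4 were higher and 7 lower, with a summed level of 5958 to 12129 FPKM in 11 Y7-1 libraries, 4562 FPKM in the doubted library and 3473 to 14552 FPKM in Y478 libraries. Of 25 epidermis and wax markers tested 8 were higher and 1 lower, of 7 guard cell markers 1 and 1, of 12 phloem markers 5 and 4 and of 19 senescence markers 5 and 3. Under drought, where 14.5% of genes tested were higher and 13.4% lower, 3 of 18 mesophyll markers were higher and 8 lower, and 4 of 25 epidermis and wax markers higher and 10 lower. Bundle sheath markers had 0 higher and 3 lower under drought, guard cell markers 2 and 1, phloem markers 4 and 2 and senescence markers 4 and 2. The lists took whole families by name, whether or not a gene is a known marker. The part of these values in the differences of the sensor and kinase genes was not tested.

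Among the sensors, the touch-induced calmodulin Zm00001d008573 was lower in Y7-1 at every treatment by mean. It had 1.78 to 34.0 FPKM (median 3.57) in 11 Y7-1 libraries, 63.9 FPKM in the doubted library and 7.60 to 142 FPKM (median 34.7) in Y478 libraries. The average line difference was -1.92 ± 0.27 (limma adjusted p = 1.64e-05), and -2.13 without the doubted library. The difference between the lines in its drought response was 0.09 ± 0.54 (limma adjusted p = 0.963), and -0.34 without that library (limma adjusted p = 0.728). Not all calmodulins were lower. Zm00001d007194, annotated as Calmodulin-7, had 10.3 to 32.6 FPKM (median 19.2) in 11 Y7-1 libraries against 5.89 to 10.7 FPKM (median 8.56) in Y478 libraries, with a difference of 1.10 ± 0.16 (limma adjusted p = 2.92e-05). The ranges overlapped only between 10.3 and 10.7 FPKM, and the doubted library had 8.57 FPKM.

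The 3 calmodulin-like proteins called were all lower. Zm00001d005766 (chr2:187317766-187318308, plus strand) had 0 to 1.32 FPKM (median 0.869) in 11 Y7-1 libraries and 2.56 to 22.9 FPKM (median 4.40) in Y478 libraries, without overlap, and 3.28 FPKM in the doubted library. Its difference was -2.10 ± 0.32 (limma adjusted p = 3.73e-05), and -2.27 without the doubted library. Zm00001d037477, Calmodulin-like protein 2, had 9.43 to 40.0 FPKM (median 24.7) in those Y7-1 libraries and 29.4 to 65.8 FPKM (median 49.3) in Y478 libraries, with 35.1 FPKM in the doubted library, a difference of -0.94 ± 0.17 (limma adjusted p = 0.000155). Zm00001d041430 differed by -1.52 ± 0.27 (limma adjusted p = 0.000196). Summed over the 5 members of the class, the 11 Y7-1 libraries had 21.2 to 52.4 FPKM, the doubted library 63.4 FPKM and the Y478 libraries 53.7 to 93.6 FPKM.

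Of the CBL proteins, CBL3, Zm00001d033295, the most abundant CBL, had 22.5 to 37.1 FPKM (median 27.8) in 11 Y7-1 libraries and 25.4 to 56.6 FPKM (median 37.6) in Y478 libraries, with 35.2 FPKM in the doubted library. The difference was -0.39 ± 0.09 (limma adjusted p = 0.00108). CBL9, Zm00001d000046, differed by -0.47 ± 0.10 (limma adjusted p = 0.000662) and CBL10, Zm00001d044285, by -1.28 ± 0.30 (limma adjusted p = 0.00179). In Arabidopsis, CBL1 and CBL9 recruit CIPK23 to the plasma membrane and CBL10 acts in shoots under salt. CBL10 had 0.469 to 4.71 FPKM (median 1.29) in 11 Y7-1 libraries, 4.11 FPKM in the doubted library and 2.38 to 9.92 FPKM (median 5.52) in Y478 libraries, with overlap.

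Of the kinases, the CDPK 3 gene Zm00001d044185 (chr3:221308521-221313821, minus strand) had the largest drop in Y7-1 on the log2(FPKM + 0.5) scale. Arabidopsis CPK3 acts in guard cell anion channel regulation. Y7-1 libraries had 0.765, 0.774 and 0.775 FPKM under drought with ABA, 1.77, 0.967 and 1.61 FPKM under control with ABA and 1.68, 1.39 and 0.934 FPKM under control, against 8.17, 10.3 and 7.47 FPKM, 13.3, 13.1 and 9.76 FPKM and 10.7, 13.5 and 13.7 FPKM in Y478 libraries of the same treatments. Under drought alone Y7-1 had 0.535 and 3.24 FPKM and, in the doubted library, 15.2 FPKM, against 11.7, 11.8 and 12.6 FPKM in Y478. The highest of the other 11 Y7-1 libraries, at 3.24 FPKM, stayed below the lowest Y478 library at 7.47 FPKM. The difference was -2.51 ± 0.28 (limma adjusted p = 1.28e-06), and -2.76 without the doubted library (limma adjusted p = 2.21e-10).

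A pair of CIPK 1 genes differed from each other in this respect. Zm00001d006944 (chr2:219965544-219970180, minus strand) had 9.80 to 30.5 FPKM (median 21.4) in 11 Y7-1 libraries, 71.3 FPKM in the doubted library and 45.3 to 117 FPKM (median 73.7) in Y478 libraries, without overlap apart from the doubted library. Its difference was -1.65 ± 0.19 (limma adjusted p = 2.22e-06), and -1.77 without the doubted library. Zm00001d040567, the most abundant member, had a line difference of -0.02 ± 0.13 (limma adjusted p = 0.937). The difference between the 2 genes was not tested.

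CIPK3, Zm00001d028949 (chr1:52582858-52587987, minus strand), had 47.7 to 152 FPKM (median 91.6) in 11 Y7-1 libraries, 370 FPKM in the doubted library and 97.4 to 380 FPKM (median 238) in Y478 libraries. Only Y478 control-exogenous ABA replicate 3, at 97.4 FPKM, fell within the Y7-1 range. The difference was -1.33 ± 0.20 (limma adjusted p = 3.09e-05), and -1.49 without the doubted library. In Arabidopsis, CIPK3 acts in ABA and cold responses. Its neighbour at 59757 bases with no protein-coding model between is calmodulin3, Zm00001d028948, whose line difference was -0.49 ± 0.18 (limma adjusted p = 0.0293).

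**Figure D3:**
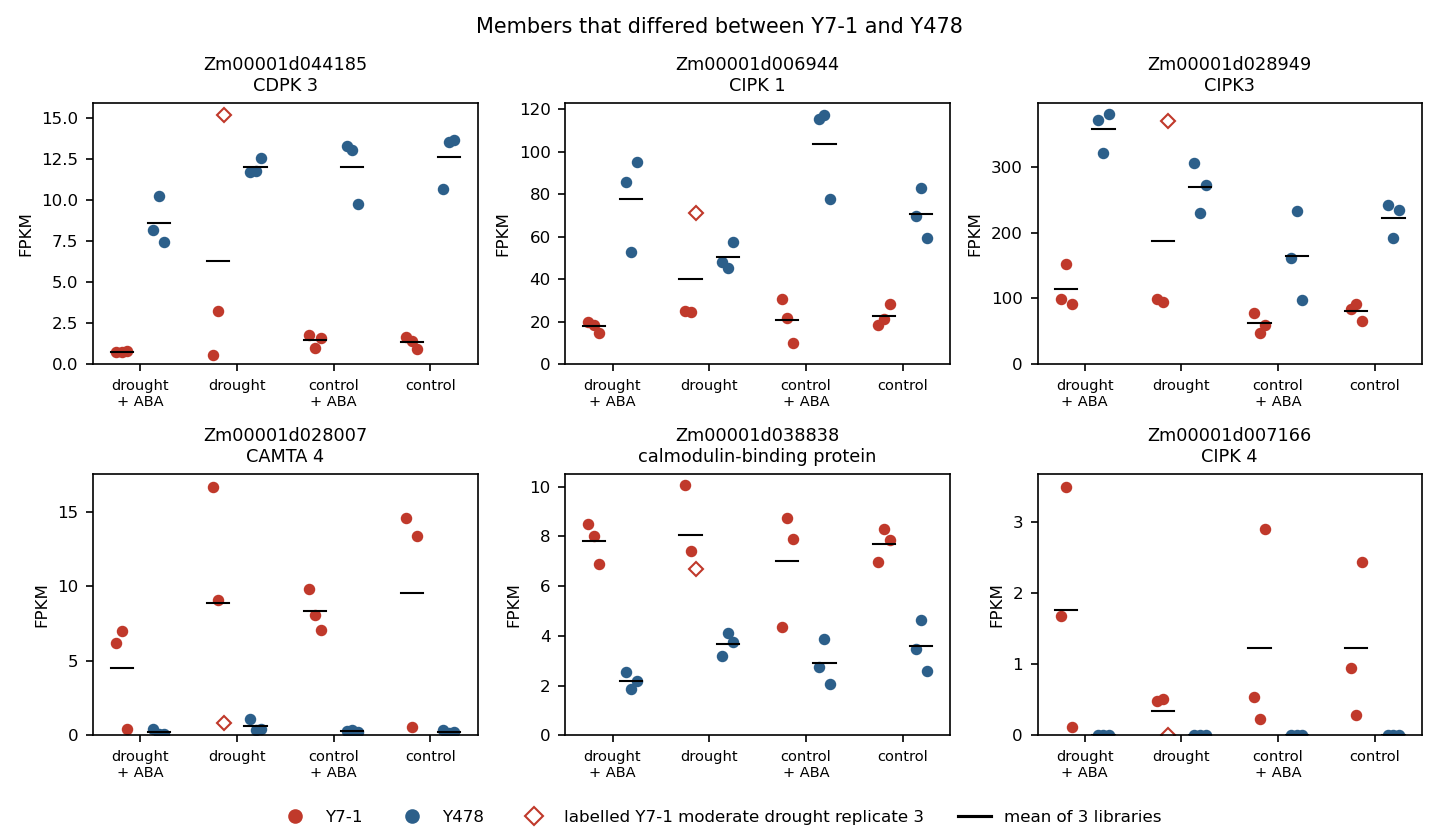
FPKM of 6 members in each of the 24 libraries, by treatment and line. Red points are Y7-1, blue points are Y478, bars are means of 3 libraries and the open diamond is the doubted replicate 3 of Y7-1 under moderate drought. The CDPK 3 gene lay between 0.535 and 3.24 FPKM in the other 11 Y7-1 libraries, below all 12 Y478 libraries, while the diamond lay at 15.2 FPKM.

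Some kinases ran the other way. The CIPK 10 gene Zm00001d029075 had 24.5 to 129 FPKM (median 36.1) in 11 Y7-1 libraries and 9.51 to 32.9 FPKM (median 23.3) in Y478 libraries, with overlap and 35.7 FPKM in the doubted library, a difference of 0.83 ± 0.17 (limma adjusted p = 0.000649). The CDPK 13 gene Zm00001d038409 had 1.14 to 3.93 FPKM (median 3.17) in those Y7-1 libraries and 0.275 to 1.74 FPKM (median 0.796) in Y478 libraries, a difference of 1.27 ± 0.16 (limma adjusted p = 5.72e-06). The CDPK 6 gene Zm00001d029758 differed by 0.99 ± 0.15 (limma adjusted p = 3.04e-05). In the doubted library Zm00001d038409 had 0.972 FPKM and Zm00001d029758 had 0.717 FPKM.

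The CIPK 4 gene Zm00001d007166 (chr2:223634679-223635971, plus strand) was listed at 0 in all 12 Y478 libraries and in the doubted library, with 0 reads recovered. The other 11 Y7-1 libraries had 0.120 to 3.49 FPKM (median 0.536), from 312 reads in all and 3 to 83 reads per library. Against a floor of 3 reads over the 12 Y478 libraries together, its pooled level of 1.20 FPKM in Y7-1 was at least 107-fold higher, counting error only. It reached 0.5 FPKM in 7 Y7-1 libraries and 0 Y478 libraries, so it passed the filter through Y7-1 alone and these values are given as a description. The gene is still included in the counts of members called higher in Y7-1, in the line average and under drought with ABA. In the line average it is also among the CIPKs called higher, the members past the minimum change and the calls kept whichever library was left out. Those calls are tied to the filter.

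Among calmodulin-binding proteins, the transcription factor gene Zm00001d028007, named CAMTA 4 and described as calmodulin-binding transcription activator 2 (chr1:20105976-20131237, minus strand), had the largest rise in Y7-1 on the same scale. CAMTA proteins bind DNA and calmodulin and act in cold and stress transcription. It had 6.18, 6.97 and 0.408 FPKM in Y7-1 under drought with ABA against 0.423, 0.107 and 0.108 FPKM in Y478, and 9.81, 8.10 and 7.05 FPKM under control with ABA against 0.279, 0.324 and 0.192 FPKM. Under control it had 14.6, 0.564 and 13.4 FPKM in Y7-1 against 0.327, 0.158 and 0.211 FPKM in Y478. Under drought alone it had 16.7 and 9.08 FPKM and, in the doubted library, 0.842 FPKM in Y7-1, against 1.06, 0.319 and 0.394 FPKM in Y478. Y7-1 was split, with 9 of its 12 libraries at 6.18 FPKM or more and 3 libraries, the doubted one included, below 1 FPKM. The difference was 2.87 ± 0.46 (limma adjusted p = 6.57e-05).

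Zm00001d038838, annotated only as a calmodulin binding protein, had 4.36 to 10.1 FPKM (median 7.91) in 11 Y7-1 libraries, 6.68 FPKM in the doubted library and 1.85 to 4.65 FPKM (median 2.97) in Y478 libraries. The ranges met only between 4.36 and 4.65 FPKM. Its difference of 1.20 ± 0.12 (limma adjusted p = 5.94e-07) was made up of 1.63, 1.02, 1.12 and 1.04 under drought with ABA, drought, control with ABA and control, each past the threshold, although the one under drought alone (limma adjusted p = 0.0498) was lost without any 1 of its other 5 libraries (limma adjusted p = 0.0664 to 0.227) and stood at 1.14 without the doubted one (limma adjusted p = 0.011). The receptor-like kinase gene Zm00001d051887 was lower, with 0.542 to 2.78 FPKM (median 1.36) in those Y7-1 libraries and 2.62 to 8.08 FPKM (median 4.99) in Y478 libraries, with 2.67 FPKM in the doubted library, a difference of -1.49 ± 0.17 (limma adjusted p = 2.36e-06). The calcium/calmodulin dependent protein kinase1 gene Zm00001d052944 had 0.261 to 1.85 FPKM (median 0.828) in 11 Y7-1 libraries, 3.03 FPKM in the doubted library and 2.38 to 5.44 FPKM (median 3.11) in Y478 libraries, a difference of -1.34 ± 0.18 (limma adjusted p = 1.32e-05).

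With the doubted library aside, the lines did not overlap for 11 members, 1 higher and 10 lower in Y7-1, against 2.465% and 3.053% of genes tested. The 1 higher, Zm00001d007166, and 1 of the 10 lower, the CDPK gene Zm00001d043150, reached the filter in 1 line only, so their separation was tied to the filter. Of the 10 lower, 6 were CDPKs, 2 CIPKs, 1 a calmodulin-like protein and 1 the calcium/calmodulin dependent kinase. For 10 of the 11 the doubted library lay nearer to Y478.

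**Figure D4:**
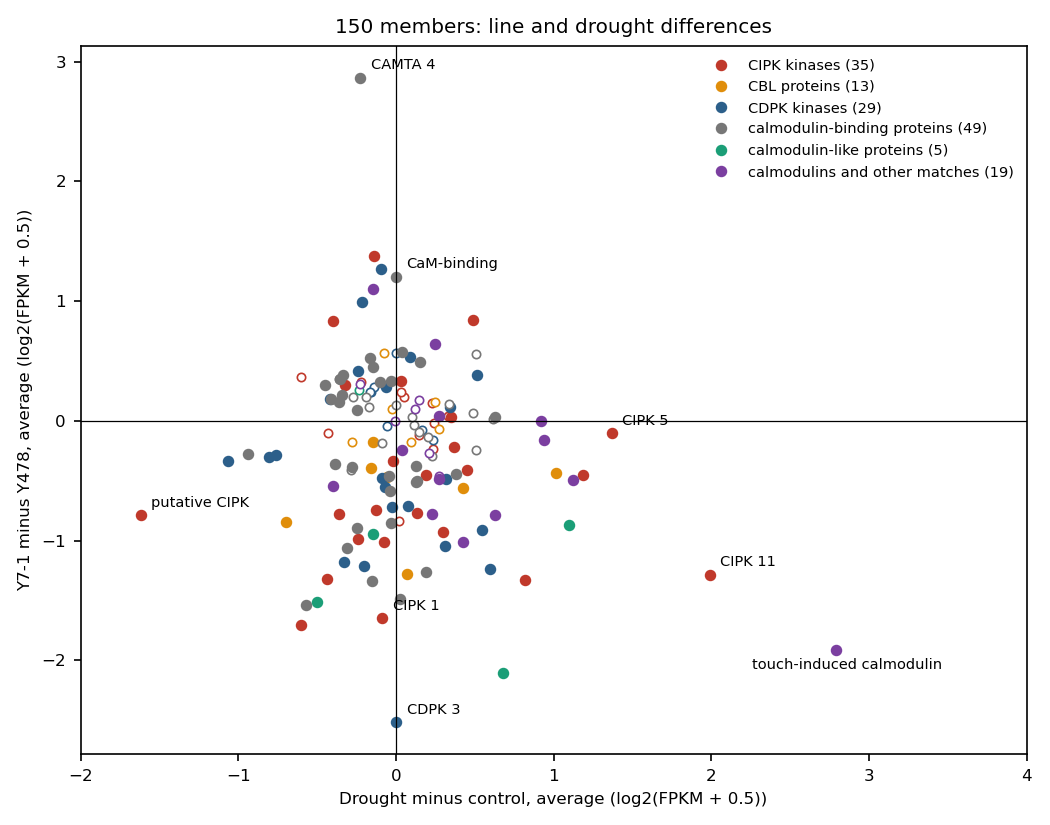
Average difference of each of the 150 members between Y7-1 and Y478 (vertical axis, log2(FPKM + 0.5)) against that between drought and control (horizontal axis, same scale), by class. Filled points passed a limma adjusted p under 0.05 in at least 1 of the 2 comparisons and open points in neither. The touch-induced calmodulin lies farthest right, at 2.79 with drought and -1.92 with line, and CDPK 3 lies lowest at -2.51.

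Within single treatments, 10 members were higher and 35 lower in Y7-1 under drought with ABA (28.1% of genes tested), 1 higher and 2 lower under drought alone (1.16%), 10 higher and 27 lower under control with ABA (22%) and 7 higher and 14 lower under control (12.2%). Without the doubted library the drought-alone count was 5 higher and 17 lower (12.8%), and it was 0 without either other Y7-1 library or without Y478 replicate 1 or 2. All groups share 1 estimate of the spread, so leaving out the doubted library moved the other counts too. They became 13 higher and 41 lower under drought with ABA (30.7%), 12 and 32 under control with ABA (24.8%) and 7 and 20 under control (15.1%). The count of 45 dropped to 29 without Y478 moderate drought-exogenous ABA replicate 3. The control count of 21 dropped to 11 without Y7-1 control replicate 3 and to 11, 9 and 10 without Y478 control replicates 1, 2 and 3.

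The study itself lists 2 members from these libraries, which therefore give no independent evidence: the CIPK 15 gene Zm00001d032155 and the CDPK 10 gene Zm00001d013109. Its supplementary lists compare treatments within Y478. The line differences given here for these 2 genes are therefore not values that the study listed. Zm00001d032155 had 76.0, 48.3 and 69.0 FPKM in Y7-1 under drought with ABA against 168, 111 and 121 FPKM in Y478, and 48.5, 42.2 and 29.4 FPKM under control with ABA against 165, 116 and 177 FPKM. The lines did not overlap in either, and the differences were -1.05 (limma adjusted p = 0.00236) and -1.92 ± 0.22 (limma adjusted p = 3.87e-05). Zm00001d013109 had 0.574, 0.417 and 0.162 FPKM in Y7-1 under control with ABA against 3.31, 3.89 and 2.18 FPKM in Y478, a difference of -2.04 ± 0.47 (limma adjusted p = 0.00481).

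Exogenous ABA was compared with no ABA spray to find which members differed with the hormone. In each line and water level 0 members passed at an adjusted p under 0.05 with limma, and 0 with limma-voom on the recovered reads. At an unadjusted p under 0.05 there were 22 members for Y7-1 under drought (15.1% of genes tested), 19 for Y7-1 under control (11.8%), 14 for Y478 under drought (9.45%) and 15 for Y478 under control (9.26%). Limma with array weights, which gives less weight to libraries that stray from their group, called 1, 2, 12 and 39 members in the same order, against 0.259%, 3.16%, 10.4% and 25.3% of genes tested. With limma and no weights, the count for Y7-1 under drought was 9 without Y7-1 moderate drought replicate 1, and that for Y7-1 under control was 1 without Y7-1 control-exogenous ABA replicate 3. Among all genes tested, 0.163%, 0.0375%, 0.00417% and 0.00417% passed with limma, so few genes of any kind did. The study reported many more differentially expressed genes for Y478 under drought with ABA against drought, among genes related to ABA signalling alone. It does not name its test, and why the counts differ was not tested. CIPK 15, Zm00001d032155, had 168, 111 and 121 FPKM in Y478 under drought with ABA against 64.3, 56.9 and 58.6 FPKM under drought alone, a difference of 1.13 ± 0.22 (limma adjusted p = 0.116) that did not pass although the groups did not overlap. Averaged over lines and water levels, 0 members passed with limma or limma-voom and 13 had an unadjusted p under 0.05, against 0.0209% of genes tested passing and 12% at an unadjusted p under 0.05. Leaving out Y7-1 control-exogenous ABA replicate 1 or 3, Y478 control-exogenous ABA replicate 2 or the doubted library gave 1 member, which was lower.

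The difference between the lines in their responses was tested as an interaction. For drought, 0 members passed with limma or limma-voom, 23 had an unadjusted p under 0.05 and 0.542% of genes tested passed, with 14.3% at an unadjusted p under 0.05. Leaving out 1 library gave 1 member without Y7-1 control replicate 1, 2 without Y7-1 control-exogenous ABA replicate 1 or without the doubted library, 5 without Y478 moderate drought replicate 3 and 3 when replicate 2 of Y478 moderate drought-exogenous ABA was dropped. For ABA, 0 members passed with either tool, 20 had an unadjusted p under 0.05 and 0.025% of genes tested passed, with 10.6% at an unadjusted p under 0.05. There 1 member passed without Y7-1 moderate drought replicate 1. The median SE over members was 0.32 log2 units for both interactions.

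The other genes of the calcium pathway were read from lists of annotation words, against 14.5% of genes tested higher and 13.4% lower under drought and 24.6% higher and 24.3% lower in Y7-1. Other EF-hand proteins, calcium binders outside the set, had 18 of 43 tested members higher and 2 lower under drought with a median of 0.37, and 3 higher and 21 lower in Y7-1 with a median of -0.39. Calcium entry genes (cyclic nucleotide-gated channels, glutamate receptors, annexins and others) had 8 of 54 higher and 6 lower under drought, and 16 higher and 15 lower in Y7-1. Calcium export and storage genes had 8 of 35 higher and 6 lower under drought, and 6 higher and 14 lower in Y7-1. A list of possible kinase targets had 14 of 91 higher and 10 lower under drought, and 18 higher and 34 lower in Y7-1. It took whole families by name, whether or not a gene is a known target. These were NADPH oxidases, anion and potassium channels, potassium and NRT1/PTR transporters, sodium/hydrogen exchangers and plasma membrane ATPases.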

How the data were processed

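The deposited table gave FPKM per gene for 24 leaf libraries, computed by the authors from reads aligned with HISAT2 2.0.5 per the submitters' processing notes. The genome build is not given in the sources used here beyond a mouse build in those notes that cannot apply to maize, and coordinates are those of the deposited table, whose contigs carry the B73V4 name. The extract protocol in the labels names retina, and the leaf label was taken as stated. FPKM times gene length gave whole reads (within 0.05) for 100% of values.

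Members, classes, pathway lists and marker lists came from annotation words, and all of them were chosen with earlier results of these data known. Genes with at least 0.5 FPKM in at least 3 libraries were fitted with limma on log2(FPKM + 0.5) in 1 model with a mean per group, a trended empirical Bayes step and Benjamini-Hochberg adjustment over 23978 genes, two-sided. Groups came from the labels. Nothing in the labels says whether plants shared a batch. The p-values rest on the spread between the 3 plants within a group, pooled over the 8 groups with the doubted library included. No 2 replicates agreed within counting noise (chi-square per degree of freedom 16.5 to 199 over 24 pairs). Named genes were, per comparison, up to 4 higher and 4 lower calls of largest size, the 2 most abundant members per class, members the study lists, and up to 6 members whose lines did not overlap. Genes outside this rule are noted as chosen after their values were seen, or are the transgene homolog and chromosomal neighbours. Alternatives were a value of 0.1 or 1 added before the log, no filter, size factors, only the groups compared, array weights, limma-voom on recovered reads, a minimum fold change of 1 on the log2 scale, a replicate block and each library left out. The fits were tested on simulated data.
Sequence features set out for the members were not analysed here. Tools were R 4.3.3 with limma 3.58.1 and Python 3.11.15 with pandas 2.3.3, numpy 2.4.6 and matplotlib 3.10.9.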

Additional observations from a re-analysis of the deposited data

How the results depend on the processing

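With 1 library left out, the line average gave 72 to 85 members and the drought average 31 to 42, and the drought split of 21 higher and 16 lower became 16 higher and 21 lower without the doubted library. With array weights the drought average gave 59 members (40.8% of genes tested), and with a minimum change of 1 on the log2 scale it gave 9 and the line average 26. Array weights gave 48 members for the lines under control (25.1% of genes tested) and 70 under control with ABA (44.3%). They gave 17 for the lines under drought (10.8%) and 68 under drought with ABA (41.8%). For drought they gave 44 in Y478 (31.2%) and 55 with ABA (35.1%), and 0 in Y7-1 (0.00834%) and 50 with ABA (29.5%). For ABA they gave 39 and 12 in Y478 under control and drought (25.3% and 10.4%). In Y7-1 they gave 2 and 1 in the same order (3.16% and 0.259%). They gave 6 for the ABA average (5.72%). The interactions of line with drought and with ABA had 9 (5.2%) and 6 (2.79%). With only the groups compared in the fit, the lines gave 16 under control with ABA and 0 under drought, and drought gave 3 in Y478 with ABA, 0 in Y7-1 and 1 in Y7-1 with ABA. The minimum change gave 23 for the lines under control with ABA and 11 for drought in Y478 with ABA. For the lines under drought, adding 0.1 before the log gave 1 and no filter gave 1. For drought in Y7-1, no filter gave 0 and limma-voom gave 0. The cause of these moves was not tested.

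Leaving out 1 library gave 9 to 27 members for the lines under control, 25 to 44 under control with ABA, 0 to 22 under drought and 29 to 54 under drought with ABA. It gave 2 to 14 for drought in Y478, 5 to 23 with ABA, 0 to 9 in Y7-1 and 7 to 27 with ABA. For ABA it gave 0 to 0 in Y478 at both water levels, 0 to 1 and 0 to 9 in Y7-1 under control and drought and 0 to 1 for the average, and 0 to 5 and 0 to 1 for the interactions.

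With the replicate block, the line average gave 79 members, the drought average 33 and the lines under drought 1, and no other count moved by over 1.5 times. Same-numbered libraries had a median correlation of deviations of -0.00 to 0.02. For replicates 1, 2 and 3 the highest values were 0.295, 0.318 and 0.21, and 4, 5 and 3 of 28 pairs were over 0.1. Libraries of different numbers were not compared, so these values cannot exclude pairing of some samples. For 68 results on named genes, 1111 alternative values kept the call, 161 lost it and 0 turned round. Of these values, 744 came from leaving out 1 library, where 647 kept the call and 97 lost it. With only the groups compared in the fit, 26 calls were kept and 26 lost. With limma-voom 53 were kept and 15 lost.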
